A study of Homo sapiens with 6 samples.

Results

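The genes described here encode the kinetochore, the spindle assembly checkpoint and the kinases of mitosis. They were taken as a fixed list of 48 gene symbols, matched by name to the deposited table without use of any measured value. Of these, 47 had a row among the 31785 rows of the table, KNTRC1 had none, and 44 passed the filter on low values, which kept 13558 rows in all. KNTRC1 may stand for KNTC1, which has a row. That was not settled, so KNTC1 is described apart and is not in the counts of 47 and 44. The libraries came from D283 Med, an established line of medulloblastoma, a childhood tumour of the cerebellum. In 3 libraries the cells were labelled as knockdown of MSI1, which encodes Musashi-1, a translation regulator of neural progenitors that binds RNA, and in 3 they were labelled WT, all from cells grown in the same medium with fetal bovine serum. The labels do not give the knockdown method, any control construct in the WT cells, or whether libraries of a group were separate cultures, so p-values measure the spread between these libraries, which may be technical.

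The kinetochore is the protein layer that joins a centromere to spindle microtubules. Its inner part, the constitutive centromere-associated network, sits on nucleosomes that hold the histone variant CENP-A. Its outer part, the KMN network, is formed by the KNL1, MIS12 and NDC80 complexes and binds the microtubule. Kinetochores without a microtubule recruit checkpoint proteins, which hold back CDC20 and with it the anaphase promoting complex. The kinases AURKA, AURKB, PLK1, BUB1 and TTK correct faulty attachments and time the steps of division. Many of these genes are transcribed late in the cell cycle, under the MuvB, MYBL2 and FOXM1 factors, which act through a promoter element called the cell cycle homology region, often beside CCAAT boxes.

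The column heading of the WT libraries is not explained by the labels, so they were taken as WT by elimination. Depth ranged from 18895997 to 24442276 reads per knockdown library and from 17299671 to 38790342 reads per WT library. Levels below are normalised reads, that is read counts divided by the authors' size factor of each library, and errors are SD over 3 libraries. A difference is knockdown minus WT on the deposited stabilised scale, which is close to log2 for abundant genes, and a gene is said to have risen or fallen where limma's adjusted p was below 0.05. MSI1 itself averaged 1288 ± 94.3 normalised reads in knockdown and 1512 ± 116 in WT (SD, n = 3 each), a difference of −0.21 that missed the threshold (limma, adjusted p = 0.304). Knockdown is therefore the label of the libraries and not a loss of MSI1 mRNA that passed the test. Its paralog MSI2, on the long arm of chromosome 17, averaged 6202 ± 915 normalised reads in knockdown and 8255 ± 1691 in WT (SD, n = 3 each). The MSI2 difference of −0.40, larger than that of MSI1, also missed the threshold (limma, adjusted p = 0.198), and passed in 1 of 14 alternative fits. The medulloblastoma marker OTX2 was abundant, with 30373 ± 3589.9 normalised reads in knockdown and 23664 ± 3341 in WT (SD, n = 3 each). The Group 4 markers EOMES, LMX1A and BARHL1 averaged under 15 normalised reads in either group. NPR3, also listed for medulloblastoma, fell (means 7759 in knockdown and 13052 in WT, difference −0.76, limma adjusted p = 0.0437). ZIC2, listed as cerebellar or neuronal, rose (means 79.6 in knockdown and 22.4 in WT, difference 0.76, limma adjusted p = 0.0230). OTX2, NEUROD1, IMPG2, NRL, CRX, ZIC1 and SYP did not pass the test. Levels in the cerebellar and neuronal list were mixed. STMN2 and TUBB3 averaged at most 22.9 normalised reads in either group. SYP averaged 380.1 ± 80.0 in knockdown and 450.2 ± 250.4 in WT, and ZIC1 1104 ± 111 and 1092 ± 133 (SD, n = 3 each). NEUROD1, from the medulloblastoma list, averaged 3018 ± 517 in knockdown and 2373 ± 1240.5 in WT. Of 6 markers of other cells, PTPRC, PECAM1 and KRT14 had a mean of 0 normalised reads in knockdown and at most 1.91 in WT, and ALB averaged 3.78 ± 1.57 in knockdown and 2.93 ± 1.67 in WT. The collagen genes, marking fibroblasts, were present and differed in opposite directions without passing the test. COL1A1 averaged 236 ± 26.0 normalised reads in knockdown and 285 ± 8.47 in WT, and COL1A2 32.5 ± 2.59 in knockdown and 23.8 ± 3.50 in WT (SD, n = 3 each), and neither pair of groups overlapped. Their part in the results below was not tested.

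The late cell cycle promoter elements were frequent in this gene set and in some neighbouring lists. RefSeq promoters on GRCh38.p14, covering 250 bases before to 50 after a gene's start, were found for 38 of the 47 genes. The cell cycle homology region, searched as TTTGAA on both strands, was present in 18 of 38 (47.4%), against 15.4% of 27305 promoters of all genes and 9.16% of the 9717 promoters of genes tested. CCAAT, searched on both strands, was present in 25 of 38 (65.8%), against 35.7% of all promoters and 37.2% of those of genes tested. Both occurred in 12 of 38 (31.6%), against 6.08%. These matches are descriptions of the letters and not evidence of binding. The 100 bases before the start are shown for 7 genes whose values are described below, 5 with a cell cycle homology region in that stretch (BUB1B, CDC20, CENPA, PLK1 and ZWINT) and 2 without (AURKB and SPC24). The start is that of the RefSeq entry used. For AURKB, CENPA and PLK1 the stretch lies wholly inside the gene as annotated in GENCODE 29. The bases before their outermost annotated start were not searched, so a missing match in AURKB holds for this start only. Capitals mark TTTGAA and CCAAT, or their reverse complements TTCAAA and ATTGG.
PLK1, plus strand, chr16:23678789-23678888: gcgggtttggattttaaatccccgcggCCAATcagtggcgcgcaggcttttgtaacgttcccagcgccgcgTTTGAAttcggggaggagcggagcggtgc
CDC20, plus strand, chr1:43358881-43358980: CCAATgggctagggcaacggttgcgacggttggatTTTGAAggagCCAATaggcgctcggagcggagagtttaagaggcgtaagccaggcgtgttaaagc
BUB1B, plus strand, chr15:40160969-40161068: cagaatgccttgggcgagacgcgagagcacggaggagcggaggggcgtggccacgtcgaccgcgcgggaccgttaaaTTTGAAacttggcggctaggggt
CENPA, plus strand, chr2:26785956-26786055: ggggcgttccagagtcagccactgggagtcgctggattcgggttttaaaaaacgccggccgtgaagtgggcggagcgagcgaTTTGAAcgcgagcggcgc
ZWINT, minus strand, chr10:56361260-56361359: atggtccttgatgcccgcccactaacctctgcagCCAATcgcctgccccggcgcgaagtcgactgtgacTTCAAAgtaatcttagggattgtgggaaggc
AURKB, minus strand, chr17:8210226-8210325: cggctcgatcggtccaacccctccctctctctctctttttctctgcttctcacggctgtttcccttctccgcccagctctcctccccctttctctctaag
SPC24, minus strand, chr19:11155783-11155882: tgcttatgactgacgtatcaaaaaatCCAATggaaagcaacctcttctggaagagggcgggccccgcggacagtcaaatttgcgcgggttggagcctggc
The element lay 29 bases before the start in PLK1, 23 in BUB1B, 18 in CENPA, 31 in ZWINT and 65 in CDC20, counted from its first base.

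In the comparison of knockdown with WT, 2 of the 44 genes rose, both of the inner kinetochore (CENPH and CENPM), and none fell. Among all 13558 genes tested 4.10% passed, 1.78% as rises and 2.32% as falls, so the share of 4.55% among the kinetochore and mitotic genes was near the background. In bulk RNA, a different share of dividing cells and a different amount of RNA per dividing cell cannot be told apart, for higher or lower values. At an unadjusted p below 0.05 there were 9 higher and 1 lower of 44, against 10.8% and 11.2% of all genes. The values of most genes lay a little higher in knockdown, in 33 of 44 against 51.0% of all genes, with a median difference of 0.21 against 0.01. Knockdown and WT libraries did not overlap in 13 of 44 genes, 11 of them higher in knockdown and 2 lower, where 27.8% of all genes did not overlap, 14.1% higher and 13.6% lower. With library weights 6 of the 44 passed, all as rises, against 8.95% of all genes in either direction and 3.92% as rises, and without WT 1 the count was also 6, against 5.35% and 2.43%. The calls of CENPH and CENPM were both lost with the replicate number as a block and without knockdown 1, 2 or 3 or WT 3.

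**Figure D1:**
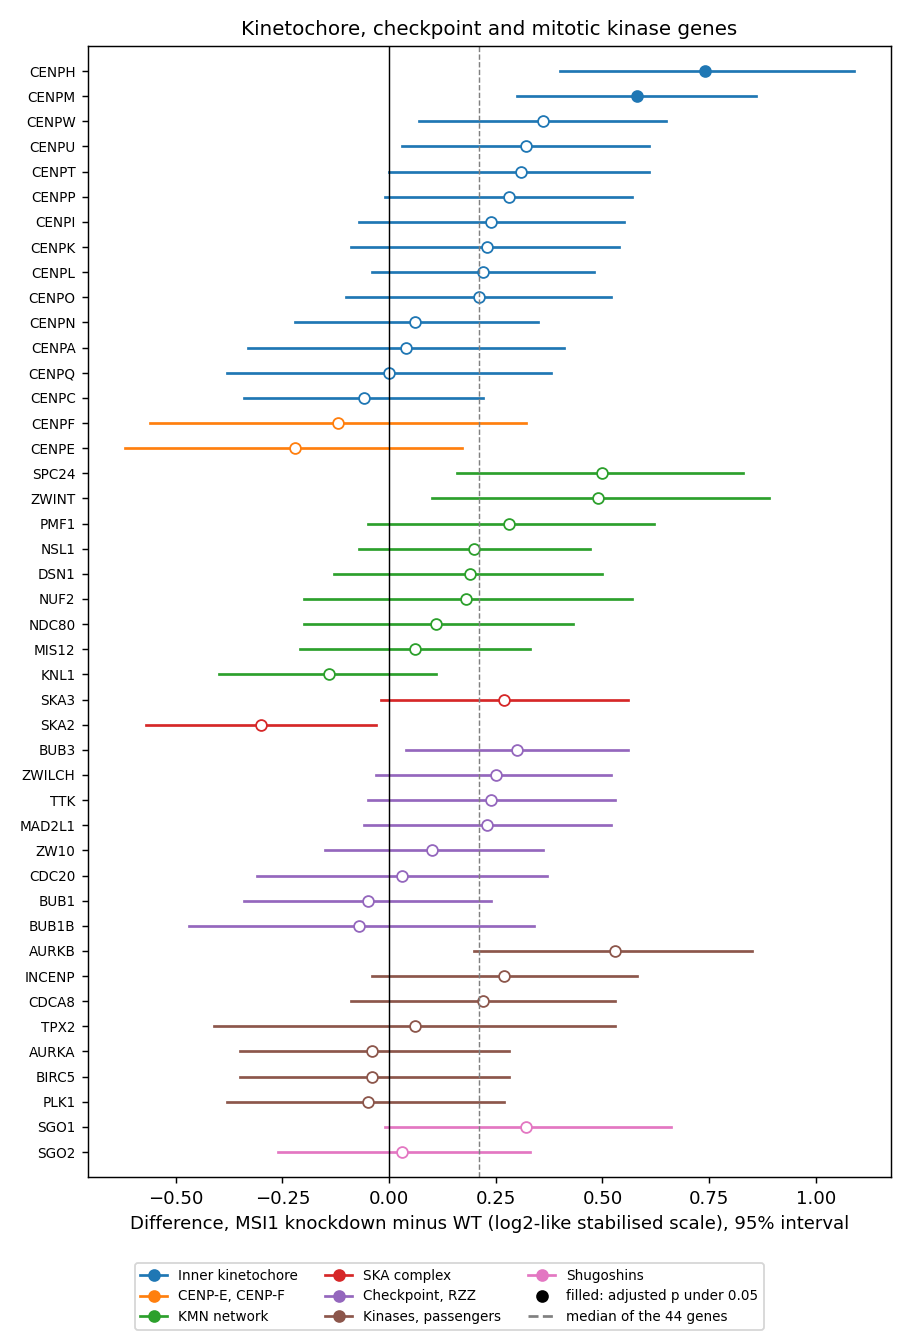
Difference between MSI1 knockdown and WT for each of the 44 genes (points, log2-like scale) with its 95% interval from limma (lines), grouped by role. The filled points are CENPH at 0.74 and CENPM at 0.58, and the dashed line is the median of the 44 genes at 0.21.

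The WT libraries differed among themselves in these genes. WT 3 was the lowest of the 3 WT libraries in 35 of 44 genes (79.5%, against 39.2% of all genes), and WT 1 was the highest of them in 29 (65.9%, against 35.9%). Averaged over the 44 genes after centring each on its own mean, knockdown 1, 2 and 3 stood at 0.05, 0.07 and 0.12, and WT 1, 2 and 3 at 0.06, −0.04 and −0.27 on the stabilised scale. WT 1 thus lay within the range of the knockdown libraries, and WT 3 lay apart from all others. Without WT 3 the median difference was 0.12 with 26 of 44 genes higher, and without WT 1 it was 0.22 with 41 higher. Over all tested genes WT 1 and WT 3 also stood at opposite ends of the second principal component, at 21.4 and −21.5, where the other 4 libraries lay between −4.4 and 4.8. The SD within WT exceeded that within knockdown in 35 of 44 genes (medians 0.10 in knockdown and 0.20 in WT), against 65.9% of all genes. The part of this WT spread in the differences below was not tested beyond leaving out each library.

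**Figure D2:**
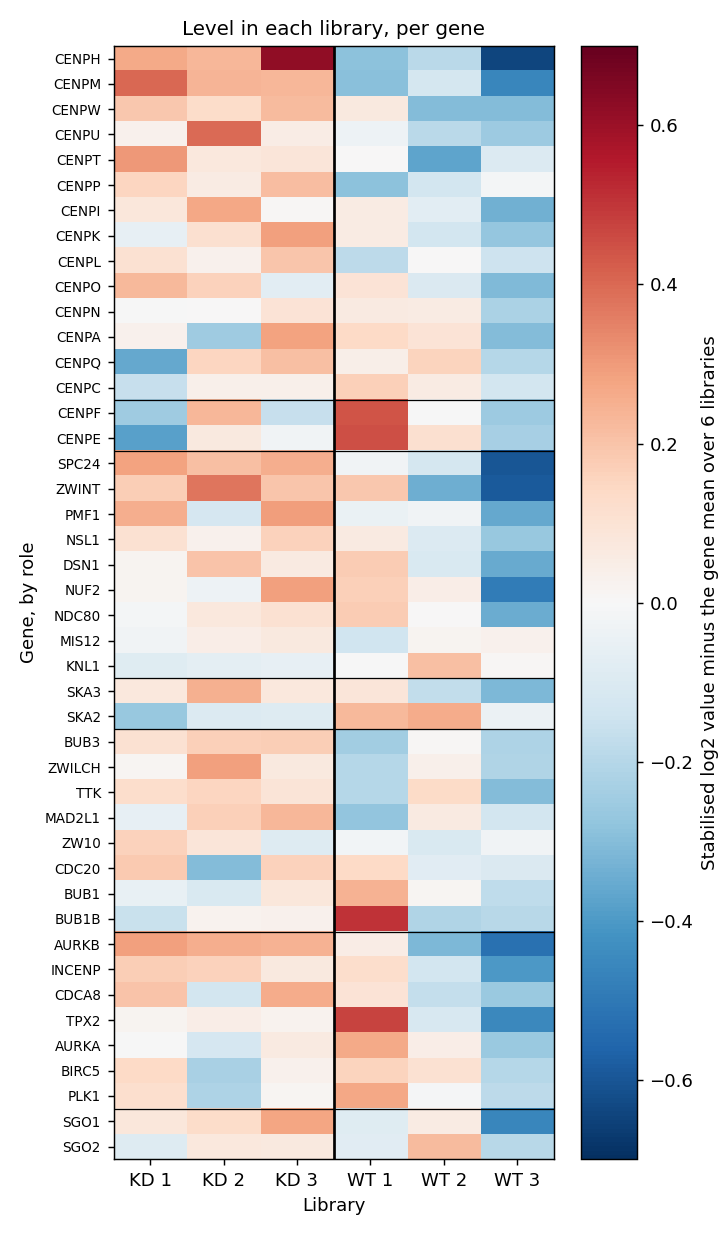
Stabilised log2 value of each gene (rows, by role) in each library (columns, knockdown, marked KD, left and WT right), minus the gene's mean over the 6 libraries. WT 3 is the lowest column in 28 of the 44 rows, and CENPF, CENPE, BUB1B and TPX2 are highest in WT 1.

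Levels per transcript length differed widely between genes. The length was that of each gene's longest annotated coding transcript, which need not be the one expressed. TPX2, which activates AURKA and nucleates spindle microtubules, had the highest level, 6038 ± 57.0 normalised reads per kilobase in knockdown and 6006 ± 2011 in WT (SD, n = 3 each). CDC20, the activator of the anaphase promoting complex, followed with 3906 ± 717 per kilobase in knockdown and 3796 ± 359 in WT. BIRC5, CENPF, PLK1 and AURKA came next by WT mean, with 2093 ± 275, 2014 ± 503, 1956 ± 323 and 1702 ± 314 per kilobase in WT, each within the SD of its neighbours in that order. CENPP was the lowest of the 44 genes by this measure, at 26.2 ± 2.03 per kilobase in knockdown and 19.8 ± 2.82 in WT, below KNL1 at 90.5 ± 0.974 in knockdown and 101 ± 9.51 in WT. The CENPP length was 8766 bases, and its longest annotated 3′ UTR has 7384. A shorter transcript would give a higher level, so its place in the order depends on this choice. Another 3 genes had so few reads that they were left out of the test. SPC25 had 33.4, 12.6 and 16.1 normalised reads in knockdown 1, 2 and 3 and 11.7, 12.0 and 18.4 in WT 1, 2 and 3. MAD1L1 had 4 to 9 reads in each library, and SKA1 had between 0 and 2. Dividing cells use all 3 proteins, and how the authors assigned reads to genes is not known here, so these rows are given as counts and not as absence of the mRNA.

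**Figure D3:**
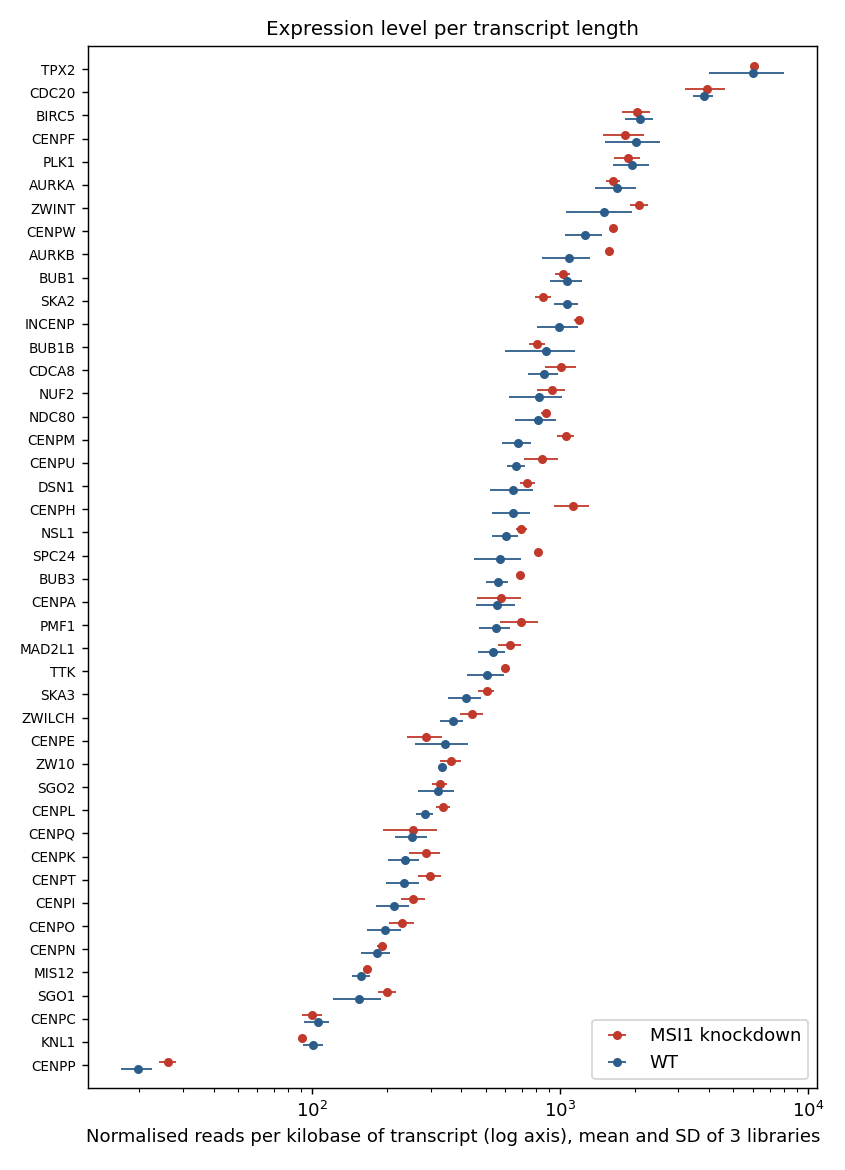
Normalised reads per kilobase of the longest annotated coding transcript on a log axis for the 44 genes, sorted by the WT mean, as mean and SD of 3 knockdown and 3 WT libraries. TPX2 and CDC20 lead and CENPP is lowest, and the points of both groups lie close together for most genes.

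Inner kinetochore genes had higher values in knockdown in 12 of 14 cases, against 51.0% of all genes (median difference 0.23). In this list 2 rose, against 1.78% of all genes. The count was 10 of 14 (median 0.18) without WT 3 and 14 of 14 (0.31) without WT 1. CENPH, a subunit of the CENP-H/I/K/M module that links CENP-A chromatin to the outer kinetochore, had 1434, 1399.6 and 1863 normalised reads in knockdown 1, 2 and 3, against 946, 1018 and 717 in WT 1, 2 and 3. Every knockdown library lay above every WT library, knockdown 3 being the highest and WT 3 the lowest. CENPH, encoded on chromosome 5 (69189548 to 69210357, plus strand, GRCh38 in GENCODE 29), rose 1.75-fold (means 1565 ± 258 in knockdown and 894 ± 157 in WT, difference 0.74, SE 0.15, limma adjusted p = 0.0310). Its adjusted p ranged from 0.0101 to 0.128 over 14 alternative fits, 5 of which lost the call, and was 0.0506 without WT 3.

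CENPM, the small pseudo-GTPase of the same module, had 1149.5, 1012 and 1011 normalised reads in knockdown 1, 2 and 3, against 669, 768 and 588 in WT 1, 2 and 3. The groups did not overlap, and the spread of knockdown was narrow relative to the gap. CENPM, encoded on chromosome 22 (41938721 to 41947164, minus strand), rose 1.57-fold (means 1058 ± 79.7 in knockdown and 675 ± 89.9 in WT, difference 0.58, SE 0.13, limma adjusted p = 0.0357, range 0.0213 to 0.164 over 14 alternatives, 5 of which lost the call). The other subunits of the module differed less. CENPI, which binds CENP-H and CENP-M, had a difference of 0.24 (SE 0.14) and CENPK one of 0.23 (SE 0.14), with overlapping groups (limma, adjusted p = 0.344 and 0.382).

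Among the histone-fold subunits, CENPW had 1237, 1185 and 1269 normalised reads in knockdown 1, 2 and 3, against 1130.3, 852 and 851 in WT 1, 2 and 3, with WT 1 the nearest to knockdown. CENPW differed by 0.36 (SE 0.13, limma adjusted p = 0.150) and its partner CENPT by 0.31 (SE 0.14, adjusted p = 0.224), and neither pair of groups overlapped. CENPW passed without WT 1 (difference 0.48, limma adjusted p = 0.0412) and with library weights (0.0401). CENPU, which docks PLK1 at the centromere, had 1526, 1996 and 1552 normalised reads in knockdown, against 1451, 1297 and 1235 in WT (difference 0.32, SE 0.13, limma adjusted p = 0.192). Its partners of the CENP-O group were at 0.28 for CENPP and 0.21 for CENPO, while CENPQ averaged 443 ± 109.6 normalised reads in knockdown and 438 ± 65.7 in WT (SD, n = 3 each). CENPL, which with CENP-N reads the CENP-A nucleosome, differed by 0.22 without overlap, and CENPN by 0.06 with overlap.

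The histone variant itself and its main reader did not separate the groups. CENPA had 835, 670.3 and 1011 normalised reads in knockdown 1, 2 and 3, against 908, 879 and 640.1 in WT 1, 2 and 3. Its groups overlapped almost completely (difference 0.04, 95% interval −0.33 to 0.41, limma adjusted p = 0.909). CENPC, the scaffold that binds the CENP-A nucleosome, averaged 695 ± 61.9 normalised reads in knockdown and 731 ± 85.3 in WT (SD, n = 3 each), a difference of −0.06 with an interval of −0.34 to 0.22.

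**Figure D4:**
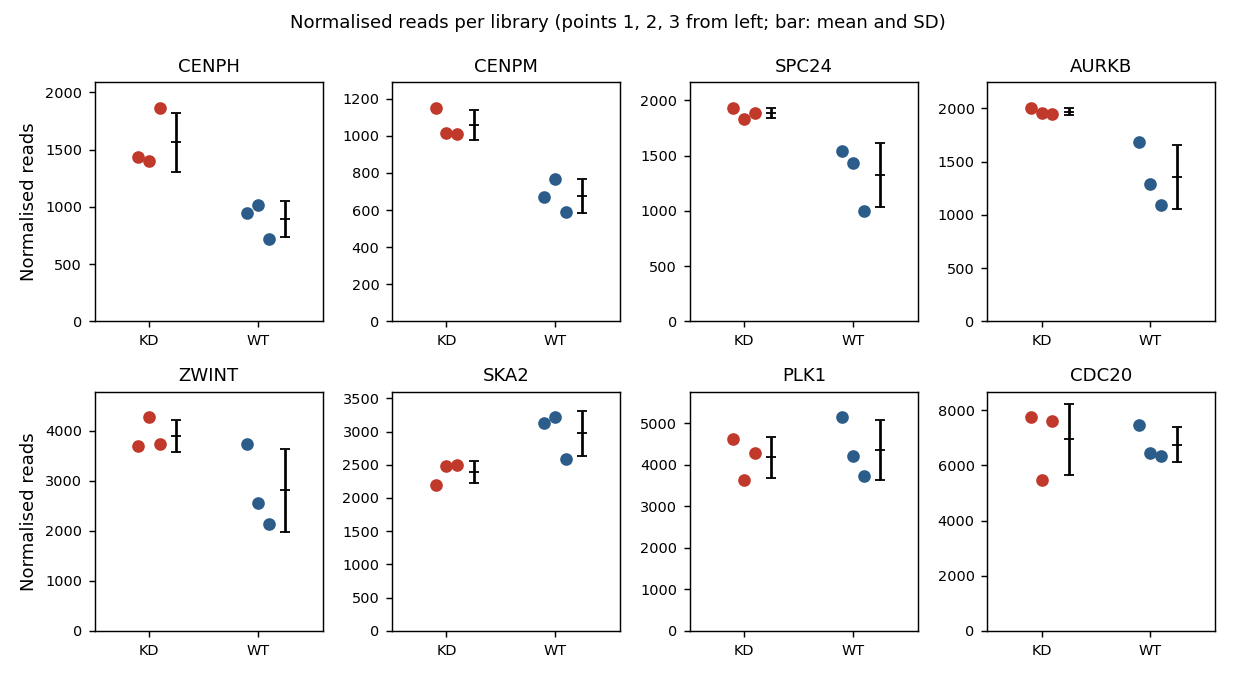
Normalised reads in the 3 knockdown (KD) and 3 WT libraries for 8 genes, with mean and SD beside the points and axes starting at 0. Knockdown lies above WT without overlap in CENPH, CENPM, SPC24 and AURKB and below it in SKA2, while the groups overlap in ZWINT, PLK1 and CDC20.

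In the KMN network 8 of 9 genes were higher in knockdown, against 51.0% of all genes (median difference 0.19), and none passed the test. The count was 6 of 9 (median 0.09) without WT 3 and 8 of 9 (0.31) without WT 1. SPC24, a subunit of the NDC80 complex that faces the MIS12 complex, had 1931, 1835 and 1889.6 normalised reads in knockdown 1, 2 and 3, against 1542, 1431 and 1000.1 in WT 1, 2 and 3. The knockdown libraries agreed closely and WT 3 was far below the other WT libraries. SPC24 differed 1.42-fold (0.50, SE 0.15, limma adjusted p = 0.0928), passed without WT 1 (difference 0.61, adjusted p = 0.0467) and with library weights (0.0343), and had a difference of 0.32 as its lowest value over the alternatives. ZWINT, the KNL1 partner that helps recruit the RZZ complex, had 3688, 4264 and 3739.5 normalised reads in knockdown, against 3732, 2549.9 and 2131 in WT, where WT 1 lay among the knockdown values. Its difference was 0.49 (SE 0.18, limma adjusted p = 0.147, and 0.0223 without WT 1).

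The microtubule-binding arm of the NDC80 complex differed less. NDC80 averaged 1895 ± 86.1 normalised reads in knockdown and 1763 ± 335 in WT, and NUF2 1817 ± 236 in knockdown and 1611 ± 389 in WT (SD, n = 3 each). Their differences were 0.11 and 0.18 with overlapping groups, and were −0.03 and −0.02 without WT 3. The MIS12 complex subunits PMF1, NSL1, DSN1 and MIS12, which join the inner to the outer kinetochore, had differences of 0.28, 0.20, 0.19 and 0.06 (limma, adjusted p = 0.302 to 0.813). KNL1, the scaffold for BUB1 and BUB3, was the member of the network that was lower. It had 856, 868 and 875 normalised reads in knockdown, against 914, 1075 and 922 in WT. The groups did not overlap, yet the difference was only −0.14 (SE 0.11, 95% interval −0.40 to 0.11).

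CENPE, the kinesin that carries chromosomes along microtubules, and CENPF, a large corona protein, had the highest value in WT 1. CENPE had 2026, 2802 and 2615 normalised reads in knockdown 1, 2 and 3, against 3688, 2891 and 2257 in WT 1, 2 and 3. Its difference was −0.22 (SE 0.18, limma adjusted p = 0.503) and moved to −0.05 without WT 1. CENPF had 16369.8, 22895 and 17415 normalised reads in knockdown, against 26478, 19453 and 16355 in WT (difference −0.12, SE 0.20, and 0.07 without WT 1). The groups of both genes overlapped.

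The SKA complex, which keeps the kinetochore on shrinking microtubule ends, had 2 tested genes that differed in opposite directions. SKA2 had 2199.9, 2486 and 2493 normalised reads in knockdown 1, 2 and 3, against 3127, 3213 and 2587 in WT 1, 2 and 3, so that all knockdown libraries were lower. Its difference of −0.30 (SE 0.12) was the lowest of the 44 genes and did not pass (limma, adjusted p = 0.190, range 0.0960 to 0.459 over 14 alternatives). SKA2 is encoded on the long arm of chromosome 17 (59109951 to 59155269, minus strand), where 514 of 578 tested genes had lower values in knockdown (median −0.33). The short arm had a median of 0.01 over 210 genes. The part of this arm-wide shift in the value of SKA2 was not tested. SKA3, on chromosome 13, averaged 1474 ± 112 normalised reads in knockdown and 1214 ± 189 in WT (SD, n = 3 each), a difference of 0.27 (SE 0.13, limma adjusted p = 0.265).

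No checkpoint gene passed the test, and 6 of 8 were higher in knockdown, against 51.0% of all genes (median difference 0.17). The count was 5 of 8 (median 0.13) without WT 3 and 8 of 8 (0.16) without WT 1. BUB3, which brings BUB1 and BUBR1 to the kinetochore, had 5226, 5466 and 5480.0 normalised reads in knockdown 1, 2 and 3, against 4084, 4876 and 4165 in WT 1, 2 and 3. These groups did not overlap, at a difference of 0.30 (SE 0.12, limma adjusted p = 0.170). TTK, the kinase that starts checkpoint signalling, and MAD2L1, the inhibitor that closes around CDC20, had differences of 0.24 and 0.23 with overlapping groups (limma, adjusted p = 0.304 and 0.337). ZWILCH and ZW10, subunits of the RZZ complex that brings dynein and MAD1 to the kinetochore, had differences of 0.25 and 0.10 (adjusted p = 0.274 and 0.652).

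BUB1, BUB1B and CDC20 did not separate. BUB1, the kinase that marks centromeric chromatin for the shugoshins, averaged 3660.4 ± 251 normalised reads in knockdown and 3815 ± 576 in WT (SD, n = 3 each). BUB1B, which encodes BUBR1 of the mitotic checkpoint complex, had 2762, 3140.0 and 3150.4 normalised reads in knockdown, against 4422, 2649 and 2685 in WT. WT 1 was far above the other libraries in BUB1B, and the difference was −0.07 with all libraries and 0.17 without WT 1. CDC20 had 7741, 5473 and 7610.0 normalised reads in knockdown, against 7479, 6432 and 6325 in WT (difference 0.03, 95% interval −0.31 to 0.37, limma adjusted p = 0.939).

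The mitotic kinases split in the same way, with none of 7 genes in their list passing and a median difference of 0.06. AURKB, the kinase of the chromosomal passenger complex, had 2003, 1959 and 1943 normalised reads in knockdown 1, 2 and 3, against 1684, 1285 and 1096 in WT 1, 2 and 3. The knockdown libraries lay within a narrow band above all WT libraries. AURKB, on the short arm of chromosome 17, differed 1.45-fold (means 1968 ± 30.7 in knockdown and 1355 ± 300.0 in WT, difference 0.53, SE 0.15, limma adjusted p = 0.0741). It passed without WT 1 (0.68, adjusted p = 0.0205) and with library weights (0.0174), and its adjusted p reached 0.219 in another alternative. The other passengers lay lower in the order. INCENP, the scaffold that activates AURKB, had a difference of 0.27 (SE 0.14), and CDCA8, which encodes borealin, one of 0.22 (SE 0.14), with overlapping groups. BIRC5, which encodes survivin, averaged 5519 ± 712 normalised reads in knockdown and 5674 ± 744 in WT (SD, n = 3 each). Its difference of −0.04 had a 95% interval of −0.35 to 0.28, and BIRC5 lies, like SKA2, on the long arm of chromosome 17.

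PLK1 and AURKA, the kinases of centrosome maturation and spindle assembly, had values that overlapped between the groups. PLK1 had 4611, 3625 and 4279 normalised reads in knockdown 1, 2 and 3, against 5136, 4211 and 3718 in WT 1, 2 and 3 (difference −0.05, 95% interval −0.38 to 0.27). AURKA had 3724, 3433 and 3908 normalised reads in knockdown, against 4511, 3863 and 3102 in WT (difference −0.04, interval −0.35 to 0.28). TPX2 had 21642, 22004 and 21655 normalised reads in knockdown, against 29679, 19705 and 15575 in WT. Its knockdown libraries were nearly equal, while WT 1 and WT 3 lay on either side of them. The sign of the list's median depended on which WT library was left out. It was 0.31 with 7 of 7 genes higher without WT 1, and −0.15 with 3 of 7 higher without WT 3.

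The shugoshins protect cohesion at centromeres until anaphase. SGO1 had 485, 507 and 572 normalised reads in knockdown 1, 2 and 3, against 423, 476 and 304 in WT 1, 2 and 3. The groups did not overlap, by a narrow margin, at a difference of 0.32 (SE 0.15, limma adjusted p = 0.245). SGO2 averaged 1379.6 ± 95.1 normalised reads in knockdown and 1354 ± 224 in WT (SD, n = 3 each), a difference of 0.03. SGO1 shares exon bases with its antisense gene, and 11 of the 47 genes overlap another gene's exons in GENCODE 29, among them CENPN, CENPO, CENPP, CENPT, CENPU, PMF1, BUB1B and PLK1. The use of strand in the authors' counting is not known here, so reads of such genes may have been shared. PMF1 and BUB1B overlap a gene on their own strand (PMF1-BGLAP and BUB1B-PAK6), which a stranded count would not separate. A named pseudogene exists for 9 of the 47 genes (CENPC, CENPI, CENPU, SKA2, BUB1, BUB3, CDC20, AURKA and SGO1), of which CENPU and SGO1 are also among the 11.

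The promoter classes were set beside the differences as a description. Among tested genes with a promoter entry, the 16 with TTTGAA had a median difference of 0.11 with 12 higher in knockdown, and the 19 without it had a median of 0.24 with 15 higher. For CCAAT the medians were 0.16 over 24 genes with it and 0.20 over 11 without. CENPH and CENPM had no entry in the promoter table.

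Musashi-type motifs were also counted, since Musashi proteins bind RNA with a UAG core. The search covered A or G followed by TAGT, the same with another T before the AGT (ATTAGT or GTTAGT), and the forms with one T more (ATTTAGT or GTTTAGT). It ran on the transcript strand of the longest annotated 3′ UTR of each gene. Of 47 genes 34 held at least 1 match (72.3%), against 72.7% of 11745 tested genes, with a median 3′ UTR of 805 bases against 1432. The overall density was 2.46 matches per kilobase against 2.11. CENPH held 4 matches in 558 bases, all within 188 bases after the stop codon by their first base, CENPM none in 446 bases and PLK1 none in 304 bases. At 7.17 matches per kilobase CENPH was not the densest of the set. NDC80 had 16.4, from 1 match in 61 bases (difference 0.11), CENPQ 8.41 (difference −0.00) and CENPE 7.21 (difference −0.22). None of these genes passed the test, and SPC25, at 7.45, was left out of it. The outermost CENPH matches are shown because this was the largest rise of the set, with the motif in capitals.
CENPH, 121 bases after the stop codon: tttacagttGTAGTacagttgtg
CENPH, 188 bases after the stop codon: tatttctatATTTAGTttgtttttt
Genes with and without a match had median differences of 0.21 (32 genes, 25 higher) and 0.16 (12 genes, 8 higher). A match does not show that the protein binds there.

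Neighbouring parts of the mitotic programme were read from lists for comparison, which were chosen with earlier results of these data known. Of 15 other centromere and checkpoint proteins 14 had higher values in knockdown, against 51.0% of all genes (median difference 0.20). In this list 2 rose, against 1.78% of all genes. ITGB3BP, which encodes the network subunit CENP-R, had 719, 859 and 902 normalised reads in knockdown 1, 2 and 3, against 354, 574 and 482 in WT 1, 2 and 3, and rose 1.76-fold (difference 0.71, SE 0.16, limma adjusted p = 0.0383, lost in 5 of 14 alternatives). MAD2L2, a relative of MAD2L1 known mainly from DNA damage tolerance, rose 1.58-fold (difference 0.61, SE 0.12, adjusted p = 0.0268, lost in 5 of 14). KNTC1, the large subunit of the RZZ complex, averaged 4855 ± 608 normalised reads in knockdown and 3414 ± 129 in WT (SD, n = 3 each) and lay just short of the threshold (difference 0.49, SE 0.12, limma adjusted p = 0.0529). The lowest value of that list was that of SPDL1, spindly, the dynein adaptor at kinetochores (−0.01).

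Of 26 genes of mitotic entry and its transcription factors 20 were higher in knockdown, against 51.0% of all genes, and 2 rose, against 1.78%. The median difference was 0.15. It was 0.07 with 14 of 26 higher without WT 3, and 0.24 with 21 higher without WT 1. LIN9, a core subunit of the MuvB complex, had 2797, 3174 and 2873 normalised reads in knockdown 1, 2 and 3, against 1581, 1633 and 1625 in WT 1, 2 and 3. It rose 1.83-fold with little spread in either group (difference 0.83, SE 0.11, limma adjusted p = 0.00656) and passed in all 14 alternatives (adjusted p 0.00130 to 0.0461). PKMYT1, which inhibits CDK1, rose 1.48-fold (0.53, SE 0.11, adjusted p = 0.0342, lost in 5 of 14). LIN54, the DNA-binding MuvB subunit that reads the cell cycle homology region, had a difference of −0.40 (SE 0.14, adjusted p = 0.126). Of 20 anaphase promoting complex and separase genes 1 fell, against 2.32% of all genes, and none rose, against 1.78% (median 0.03). CDC27, a core subunit on the long arm of chromosome 17, averaged 2607 ± 59.0 normalised reads in knockdown and 3734 ± 228 in WT (SD, n = 3 each), 1.43-fold lower (difference −0.50, SE 0.11, limma adjusted p = 0.0341, lost in 5 of 14 alternatives). The highest value there was that of FBXO5, an inhibitor of the complex (0.45, adjusted p = 0.0944).

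No gene passed among 21 cohesin and condensin genes (median 0.02), which ranged from −0.39 for PDS5A, a cohesin regulator, to 0.43 for NCAPH2, a condensin subunit. The same held for 21 tested genes of spindle assembly and cytokinesis (median 0.03), from −0.35 for TUBG1, which encodes gamma-tubulin on the long arm of chromosome 17, to 0.48 for HAUS1 of the augmin complex. NUSAP1 and HAUS7 of that list were left out by the filter. DNA replication genes had a median difference of 0.43 (0.55 without WT 1 and 0.31 without WT 3). Of 34 genes 31 were higher, against 51.0% of all genes, and 3 rose, against 1.78%. These were CDT1 and GINS3, which help load and start the replicative helicase, and POLA2 of the primase complex. Their mean normalised reads were 1.89-fold, 2.53-fold and 1.61-fold higher in knockdown, in that order. The tested differences on the stabilised scale were 0.88, 1.02 and 0.53 (limma, adjusted p = 0.00656, 0.0143 and 0.0372). CDT1 passed in all 14 alternatives, GINS3 was lost in 2 and POLA2 in 6. RFC1, the large clamp loader subunit, was lowest at −0.45 (adjusted p = 0.104). WT 3 had the lowest centred mean of the 6 libraries in each of these 6 lists, from −0.08 for the anaphase promoting complex to −0.41 for DNA replication. Leaving out WT 3 gave medians of 0.17 for the other centromere proteins and 0.02 for the anaphase promoting complex. It gave −0.08 for cohesin and condensin and −0.07 for spindle assembly and cytokinesis. Leaving out WT 1 gave 0.29, 0.10, 0.15 and 0.13 for these lists, in that order. The lists were compared by these values only, and no test of the difference between lists was made.

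**Figure D5:**
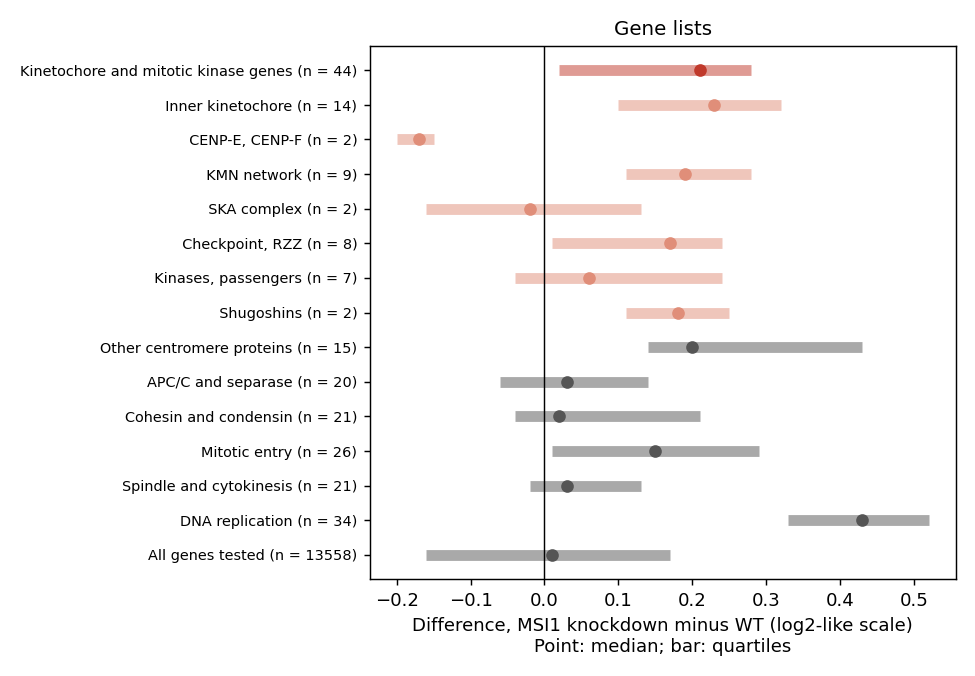
Median (point) and range between the quartiles (bar) of the difference between MSI1 knockdown and WT, for the 44 genes, their 7 role groups, 6 neighbouring lists and all 13558 genes tested. DNA replication lies farthest right at 0.43, the 44 genes at 0.21 and all genes at 0.01.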

How the data were processed

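RNA of 3 MSI1 knockdown and 3 WT libraries of D283 Med cells was sequenced. The submitters' processing notes name STAR, DESeq, CASAVA 1.8.2, Trim Galore, MultiQC and FastQC, with the build GRCh38. The annotation, strand setting and read counter are not known here (not given in the sources used here). The authors deposited 1 table of variance-stabilised values, close to log2 for high counts. The labels do not explain the heading of 3 of its columns, which were taken as WT by elimination, the other 3 being named as knockdown.

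The values were inverted to reads. With an offset of 55.2, 100.0% came out whole within 0.01, giving 17299671 to 38790342 reads per library. Genes were kept where the mean over all libraries lay more than 1 above the lowest deposited value of 5.79, about 27.6 normalised reads. Differences were fitted on the deposited values with limma 3.58.1 (trend and moderated variance, R 4.3.3) over 13558 genes, with Benjamini-Hochberg adjustment and a threshold of 0.05, and the fit was tested on simulated data. With 3 libraries a group, 0.1 is the smallest p of an exact two-sided permutation test. No pair of replicate libraries agreed within sampling noise. Fits without a filter or with a stricter one, with median centring, quantile normalisation, robust moderation, library weights, a replicate block, voom on the recovered reads, and without each library were the alternatives.

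All genes of the set were reported. From the neighbouring lists those that passed, those with the highest and lowest difference and KNTC1 were named. The genes and lists were chosen with earlier results of these data known, and KNTC1 after its values were seen. Positions, lengths and 3′ UTRs come from GENCODE 29 and promoters from RefSeq (GRCh38.p14).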

Additional observations from a re-analysis of the deposited data

How the results depend on the processing

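The median difference of the 44 genes stayed positive, at 0.12 to 0.23, in all 14 alternatives. CENPH and CENPM were positive in all of them, and each passed in 9. The number of the 44 genes past the threshold was 2 with all libraries, 6 with library weights (AURKB, CENPW, SPC24 and ZWINT added, where 8.95% of all genes passed), 0 with the replicate block, and 0 to 6 when 1 library was left out. It was 0 without knockdown 1, 2 or 3 or WT 3 and 6 without WT 1. Over all genes 556 passed, 1213 with library weights, 221 with the replicate block, 514 with voom on the recovered reads, and 56 to 726 without 1 library. With the replicate number as a block, CENPH had a limma adjusted p of 0.0678 and CENPM one of 0.0715. The block left their differences at 0.74 and 0.58. The labels do not say whether same-numbered libraries were paired. Deviations of same-numbered libraries from their group means correlated at −0.00, −0.25 and 0.00 across genes, which cannot settle whether they were.

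Small differences changed sign in some fits, none of them past the threshold. Quantile normalisation gave 0.00 for AURKA and −0.03 for TPX2. Library weights gave 0.00 for AURKA, 0.01 for BUB1, 0.03 for BUB1B, 0.01 for PLK1, −0.03 for SGO2 and 0.04 for SPDL1. Over the fits without 1 library the lowest and highest differences were AURKA −0.18 to 0.09, BIRC5 −0.15 to 0.06, BUB1 −0.15 to 0.06, BUB1B −0.19 to 0.17, CDC20 −0.06 to 0.19, CENPA −0.10 to 0.18, CENPC −0.14 to 0.01, CENPF −0.28 to 0.07, CENPN −0.03 to 0.11, CENPQ −0.11 to 0.18, NDC80 −0.03 to 0.23, NUF2 −0.02 to 0.31, PLK1 −0.16 to 0.07, SGO2 −0.06 to 0.15, TPX2 −0.15 to 0.31 and SPDL1 −0.10 to 0.12. The cause of these changes was not tested. Standard errors of the 44 genes ran from 0.11 to 0.21, which limits what 3 libraries a group can show.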
